A study of Mus musculus with 15 samples.

Results

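The 42 genes described here act between the end of DNA replication and cell division. They are a fixed list of mouse genes of G2 phase and mitosis, matched by symbol to the Ensembl gene identifiers of the deposited tables. All 42 matched a row among 37620 identifiers in all, and no measured value entered their choice. The RNA came from lung metastases of B16-F10.1, a transplantable melanoma cell line of the C57BL/6 background, grown in male C57BL/6J mice. Per the series' design text, mice aged 8 weeks received 100000 cells by tail vein and tumours grew for 21 days before a 2-week test diet. All 15 libraries carry the same tumour line and host strain, and the groups differ in dietary methionine. The adequate diet (n = 3) is the control, the supplemented diet held 300% (n = 6), the restricted diet 25% (n = 3) and the deficient diet 0% (n = 3). The design text describes the adequate, deficient and restricted diets, and the supplemented group appears in the sample labels only. The line is grown as an implant after injection, and the labels do not say whether a library is 1 mouse, 1 nodule or a pool, so the tests below measure the spread between these libraries, which may be technical.

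A dividing cell enters mitosis when cyclin B and the kinase CDK1 become active, builds a bipolar spindle from microtubules and motor proteins, attaches each chromosome through its kinetochore, and waits at the spindle checkpoint until all are attached. The anaphase-promoting complex then triggers the separation of sister chromatids, and the central spindle directs cytokinesis. Most of these genes are transcribed together late in the cell cycle by the MuvB complex with B-MYB and FOXM1, which reaches promoters through a short element called the CHR, often beside CCAAT boxes bound by NF-Y. Their RNA is widely read as a sign of how many cells of a tumour are cycling. In RNA from whole tissue, fewer cycling cells and less of the RNA in each cell cannot be told apart.

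The promoters of a few members are shown because most of the members' promoters that were searched held matches to those elements. Each window runs 5′ to 3′ from 120 bases before to 30 bases after the start of the gene in RefSeq on GRCm38.p6, with matches to TTTGAA or TTCGAA (the CHR and its variant spelling) and to CCAAT in capitals. Both strands were searched, so TTCAAA and ATTGG are matches on the opposite strand, and no match overlaps another in these windows.
Cdc20 (chr4:118437314-118437463, minus strand): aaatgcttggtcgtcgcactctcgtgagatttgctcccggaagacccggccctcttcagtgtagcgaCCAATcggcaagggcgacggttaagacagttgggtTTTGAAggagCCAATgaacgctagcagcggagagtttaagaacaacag
Espl1 (chr15:102296173-102296322, plus strand): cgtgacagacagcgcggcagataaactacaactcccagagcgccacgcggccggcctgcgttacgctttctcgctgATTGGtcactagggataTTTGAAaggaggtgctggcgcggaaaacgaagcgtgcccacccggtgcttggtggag
Cenpf (chr1:189688057-189688206, minus strand): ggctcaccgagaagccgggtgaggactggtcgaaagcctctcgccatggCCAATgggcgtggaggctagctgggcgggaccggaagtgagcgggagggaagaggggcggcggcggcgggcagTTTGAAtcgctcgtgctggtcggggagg
Top2a (chr11:99024160-99024309, minus strand): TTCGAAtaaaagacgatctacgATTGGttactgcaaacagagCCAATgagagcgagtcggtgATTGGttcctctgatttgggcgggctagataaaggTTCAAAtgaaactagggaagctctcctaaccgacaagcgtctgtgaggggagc
Ccnb1 (chr13:100786457-100786606, minus strand): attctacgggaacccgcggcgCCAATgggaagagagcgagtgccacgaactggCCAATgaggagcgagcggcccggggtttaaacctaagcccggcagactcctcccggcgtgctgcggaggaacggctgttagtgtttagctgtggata
In Cdc20 the TTTGAA begins 18 bases before the start and lies between CCAAT boxes that begin 53 and 8 bases before it. Espl1 has its TTTGAA 27 bases and Top2a 23 bases before the start. Cenpf has it from base 3 of the transcript, and Ccnb1 has CCAAT boxes and no CHR spelling in this window.

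A promoter entry of 300 bases, 250 before and 50 after the start, was held for 35 of the 42 members. TTTGAA was present in 27 of them (77.1%) against 17.9% of 32851 mouse promoters of the same length, and in its last 100 bases in 24 (68.6%) against 5.14%. TTCGAA was present in 4 (11.4%) against 1.56%. CCAAT was present in 27 (77.1%) against 37.4%, and a CHR of either spelling together with CCAAT in 25 (71.4%) against 7.52%. The 6 members whose entry had neither CHR spelling were Birc5, Ccnb1, Cenpe, Knstrn, Nuf2 and Nusap1. These are letter matches in a reference, on another build than the submitters' NCBIM37, and they describe the promoters without showing that a factor was bound in these tumours.

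Some libraries stood apart before any comparison. Library totals ran from 13107679 to 29994264 counts, and the 42 genes held 0.163% to 0.348% of them. Deficient replicate 3 carried the most normal lung RNA, with a summed level of 6610 CPM, counts scaled to library size, over 10 of 10 measured alveolar type 2 genes against 110 to 1844 CPM in the other libraries, and the least melanocyte RNA. Supplemented replicate 5 held 1061 CPM of skeletal muscle genes (3 of 7 listed genes measured) against 1.37 to 8.74 CPM elsewhere. In adequate replicate 1, 2 unnamed identifiers with the same counts as each other held 36.4% of all counts against 10.6% to 24.4% in the other libraries, and its TMM scaling factor was 0.69, the lowest of the 15. Melanocyte genes were strong in every library, with Tyr, the pigment enzyme tyrosinase, at 362 to 815 CPM; the defining markers of the labelled tumour were thus present. Values without those 3 libraries are given for the list, its roles and the other lists, and for genes whose difference then moved by more than 1.5 times. Only adequate replicates 2 and 3 and deficient replicates 1 and 2 then remain on those diets. Adequate replicate 2 had the lowest mean level of the list on its diet, so comparisons with the adequate diet lean on it there.

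The mean level of the 42 genes was highest on the restricted diet, and it was lowest on the deficient diet only when deficient replicate 3 was counted. The mean log2 CPM of the list was 5.64, 5.78 and 5.76 in the restricted libraries and 5.34, 5.40 and 4.70 in the deficient libraries. It was 5.45, 4.88 and 5.54 on the adequate diet, and on the supplemented diet it ran from 5.32 to 5.76. The restricted libraries lay above every deficient and adequate library, the supplemented libraries overlapped both, and adequate replicate 2 and deficient replicate 3 lay far below the rest. By diet mean, 38 of 42 members were highest on the restricted diet, 3 on the adequate and 1 on the supplemented, and 30 were lowest on the deficient and 12 on the adequate diet. Without deficient replicate 3, 17 were lowest on the deficient and 24 on the adequate diet, and the mean level of the list was 5.37 on the deficient and 5.29 on the adequate diet. Between the lowest and the highest library a member differed by 1.87-fold (Bub3) to 4.15-fold (Nuf2), with a median of 2.62-fold.

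**Figure D1:**
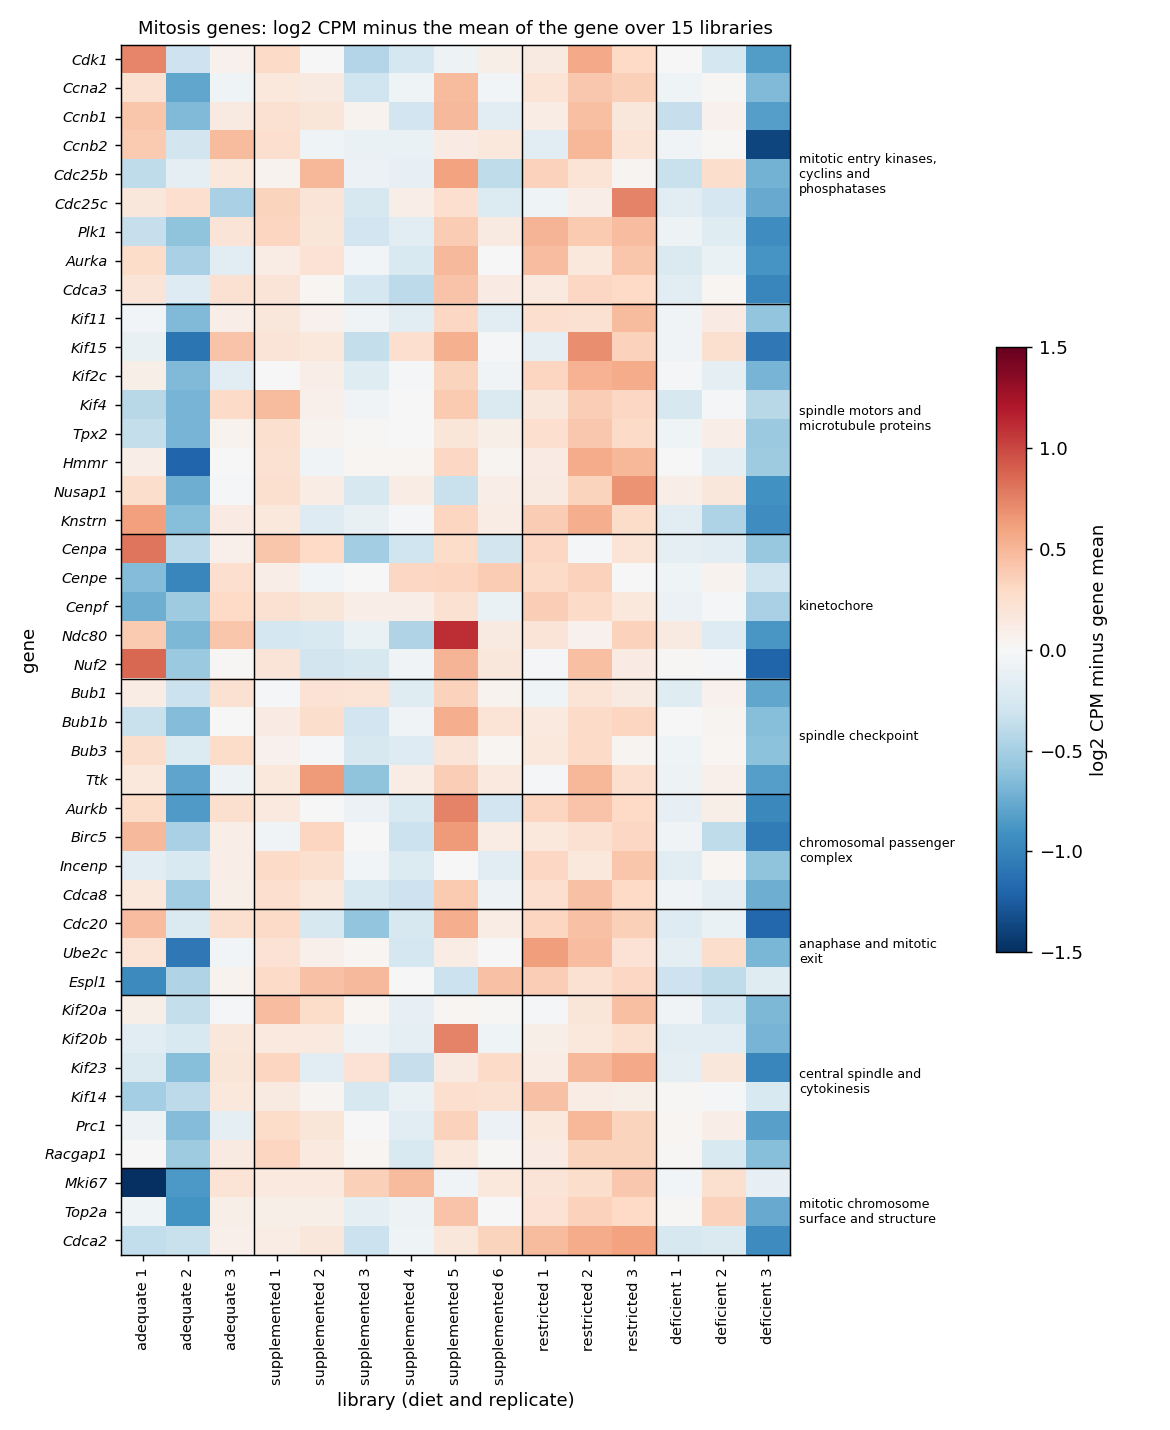
Each row is a gene and each column a library, and the colour gives log2 CPM minus the mean of that gene over the 15 libraries, with roles separated by lines. The restricted columns are mostly red, adequate replicate 2 and deficient replicate 3 are mostly blue, and adequate replicate 1 runs from red for Cdk1 to dark blue for Mki67.

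Differences between diets were tested with edgeR's quasi-likelihood test over 16001 genes, and log2 fold changes and adjusted p-values are from that test unless another tool is named. It called 0 of the 42 members at an adjusted p under 0.05 in any of the 6 pairwise comparisons. In the test of any difference among the 4 diets it called 0 members, against 0.00625% of all genes, and the smallest adjusted p was 0.373 (Cdca2). There, 7 members had an unadjusted p under 0.05, against 9.47% of all genes. Limma-voom called 0 members in each pairwise comparison. DESeq2 called Cdca2 in the test of any difference (adjusted p = 0.0155, where it called 1.1% of all genes, for DESeq2 the 23560 with any count) and in deficient against restricted libraries, and called no other member. The values that follow are therefore a description of levels, and comparisons against the same diet share its libraries.

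Deficient and restricted libraries differed in 1 direction at every member. All 42 had a log2 fold change below 0, where 48.1% of all genes did, and the median was -0.53 against 0.02 over all genes. Members share the libraries, here and in the comparisons below, so their counts are not counts of independent results. For 29 members the 3 deficient libraries lay below the 3 restricted libraries without overlap, a pattern seen in 6.38% of all genes. Called by edgeR were 0 members against 0% of all genes, and by DESeq2 1 member (Cdca2, log2 fold change -0.95, SE 0.22, adjusted p = 0.0475) against 0.034%. An unadjusted p under 0.05 was reached by 21 members, all lower, against 2.28% of all genes. Higher, there were 0 members without overlap, against 4.71% of all genes, and 0 with an unadjusted p under 0.05, against 5.16%. Without deficient replicate 3, all 42 were still below 0 and 29 still did not overlap, where 10.6% of all genes did not, and the median was -0.34 with 6 members at an unadjusted p under 0.05. Without the 3 libraries that stood apart the median was -0.32, and 29 members lay lower without overlap, against 10.6% of all genes. Counts by role stand beside 6.38% of all genes with all libraries, and beside 10.6% without those 3.

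Restricted and adequate libraries differed the other way. Of the 42 members 39 were above 0, where 50.4% of all genes were, with a median log2 fold change of 0.44 against 0.00 over all genes. For 14 members all restricted libraries lay above all adequate libraries, against 8.37% of all genes, and 13 had an unadjusted p under 0.05, all higher, against 4.87%. In the other direction there were 0 members of either kind, against 8.27% of all genes without overlap and 4.31% with an unadjusted p under 0.05. EdgeR called 0 members here, against 0% of all genes, and the smallest adjusted p was 0.349 (Cdca2). Without the 3 libraries that stood apart all 42 were above 0, the median was 0.45, and edgeR called Kif2c (log2 fold change 0.84, SE 0.17, adjusted p = 0.0485), in a fit that called 0.404% of all genes. The control in that fit was adequate replicates 2 and 3 only. Without adequate replicate 1 the count of members without overlap was 23, against 16.4% of all genes. Both were the same without the 3 libraries. Counts by role stand beside 8.37% of all genes with all libraries, and beside 16.4% without those 3. Without adequate replicate 2, the lowest of all 15 libraries for 10 members, the median was 0.27, with 33 above 0. The smallest adjusted p by edgeR was then 0.564 (Cdca2).

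Deficient and adequate libraries did not separate at the list. The median was -0.14, with 30 members below 0 and 12 above, and no member had libraries without overlap, against 7.96% of all genes lower and 7.91% higher. EdgeR called 0 members against 0.00625% of all genes, and 1 member, Knstrn, had an unadjusted p under 0.05, lower, against 5.84% of all genes lower and 9.29% higher. DESeq2 called 0 members, against 2.46% of all genes. The direction of the median rested on single libraries: it was 0.03 without deficient replicate 3 and 0.07 without the 3 libraries that stood apart. Without adequate replicate 2, in contrast, it was -0.30, and 16 members lay lower without overlap, against 12.8% of all genes.

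The mean level of the supplemented libraries (5.51 ± 0.17, SD, n = 6) lay between those of the restricted (5.73 ± 0.07, n = 3) and adequate libraries (5.29 ± 0.36, n = 3), and that of the deficient libraries was 5.15 ± 0.39 (n = 3). Against adequate libraries the median was 0.22 with 34 of 42 above 0, edgeR called 0 members against 0% of all genes, and 5 had an unadjusted p under 0.05, all higher, against 4.85% (4.92% lower). Limma-voom called 0 members against 0.0187%. No member had libraries without overlap, against 2.14% of all genes higher and 2.24% lower, and the median was 0.05 without adequate replicate 2. Without the 3 libraries that stood apart the median was 0.20, with 7 members at an unadjusted p under 0.05 by edgeR. In deficient against supplemented libraries all 42 members were below 0 with a median of -0.34, edgeR called 0 against 0% of all genes, 8 had an unadjusted p under 0.05 against 1.76%, and Kif20b alone did not overlap, against 0.9%. Higher, 0 members had such a p against 3.69%, 0 lay without overlap against 1.01%, and DESeq2 called 0 against 0.00849%. That median was -0.15 without deficient replicate 3 and -0.075 without the 3 libraries that stood apart. In restricted against supplemented libraries 41 of 42 were above 0 with a median of 0.20, edgeR called 0 against 0% of all genes, and 2 had an unadjusted p under 0.05 against 1.08%. There, 3 members lay higher without overlap against 1.32% of all genes, and 10 without supplemented replicate 5, against 2.71%. Lower, 0 lay without overlap against 0.787%, and DESeq2 called 0 members against 0.00424% of all genes. Without the 3 libraries that stood apart the median was 0.24 in restricted against supplemented libraries, with 12 members at an unadjusted p under 0.05 by edgeR.

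**Figure D2:**
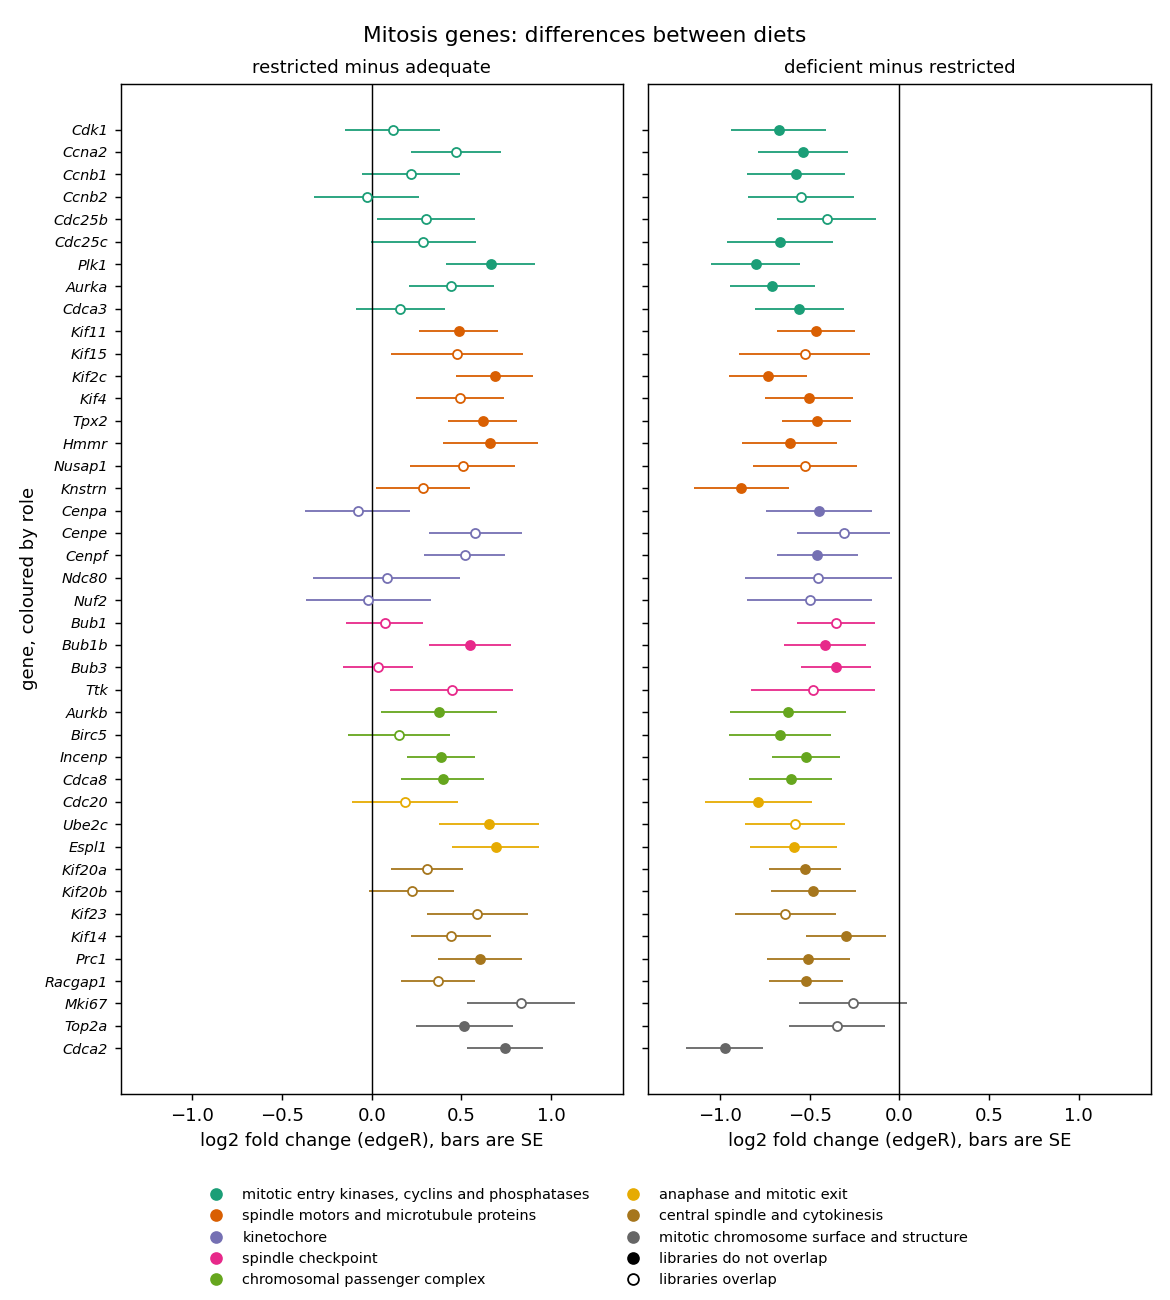
Points are log2 fold changes of the 42 genes from the edgeR fit with bars of 1 SE, for restricted minus adequate (left) and deficient minus restricted (right), coloured by role; filled points mark genes whose libraries do not overlap. On the right every point lies below 0, led by Cdca2, and on the left 39 of 42 lie above 0.

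The gene with the smallest p in 4 of the 6 comparisons was Cdca2 (ENSMUSG00000048922), which encodes a chromatin-bound targeting subunit of protein phosphatase 1 that helps to reverse mitotic histone phosphorylation. Its level was 44.5, 47.2 and 48.5 CPM in the restricted libraries and 27.01, 27.5 and 16.7 CPM in the deficient libraries. On the adequate diet it was 24.7, 25.3 and 33.7 CPM, and on the supplemented diet 25.6 to 40.3 (median 35.2) CPM. The restricted libraries stood above all 12 others. The log2 fold change was -0.97 (SE 0.21, adjusted p = 0.649) in deficient against restricted libraries, 0.74 (SE 0.21, adjusted p = 0.349) in restricted against adequate, 0.47 (SE 0.18, adjusted p = 1) in restricted against supplemented and -0.51 (SE 0.19, adjusted p = 0.87) in deficient against supplemented. It shares its class, the surface and structure of mitotic chromosomes, with Mki67 and Top2a. Without the 3 libraries its difference in deficient against supplemented libraries was -0.29, and over the class, 3 of 3 were below 0 in deficient against restricted libraries (median -0.17, 1 lower without overlap) and 3 above 0 in restricted against adequate (median 0.59, 2 higher without overlap).

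Mki67 (ENSMUSG00000031004) encodes Ki-67, the protein that coats mitotic chromosomes and is stained to count proliferating tumour cells. It stood at 61.4, 94.7 and 198 CPM on the adequate diet, 197, 206 and 228 CPM on the restricted and 167, 203 and 158 CPM on the deficient diet, and at 166 to 240 (median 191) CPM on the supplemented diet. The adequate libraries were the most spread of the diets, and apart from adequate replicates 1 and 2 the diets overlapped. Mki67 had the largest log2 fold change of the list in restricted against adequate libraries, 0.83 (SE 0.30, adjusted p = 0.434), and the smallest in size in deficient against restricted, -0.26 (SE 0.30, adjusted p = 0.926). In supplemented against adequate libraries it was 0.76 (SE 0.27, adjusted p = 0.407). Top2a (ENSMUSG00000020914), the DNA topoisomerase that untangles sister chromatids, was at 190.1, 107 and 211 CPM on the adequate diet, 230.4, 252 and 245 CPM on the restricted, 202, 251.2 and 118 CPM on the deficient and 180.5 to 267 (median 204) CPM on the supplemented diet. Its restricted libraries lay above the adequate ones (log2 fold change 0.52, SE 0.27, adjusted p = 0.6) and overlapped the deficient ones (-0.35, SE 0.27, adjusted p = 0.829). Mki67 without the 3 libraries was at 0.51 in restricted against adequate, 0.50 in supplemented against adequate and -0.17 in deficient against restricted libraries, and Top2a at -0.08 in the last of these.

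Among the 9 genes of mitotic entry (kinases, cyclins, phosphatases and Cdca3), all were lower in deficient than in restricted libraries, with a median of -0.58. Of these, 7 lay without overlap, against 6.38% of all genes. Against the adequate diet all 9 were below 0 in deficient libraries (median -0.36) and 8 above 0 in restricted libraries (median 0.29). With the 3 libraries that stood apart left out, 9 of 9 were below 0 in deficient against restricted libraries (median -0.36, 7 lower without overlap) and 9 above 0 in restricted against adequate (median 0.44, 4 higher without overlap). In deficient against adequate libraries only 5 were then below 0 and 4 above, with a median of -0.02. Plk1 (ENSMUSG00000030867), the Polo-like kinase that drives entry into mitosis and maturation of the centrosomes, was at 81.4, 75.1 and 78.6 CPM on the restricted diet, 45.1, 37.6 and 65.6 CPM on the adequate and 54.2, 50.4 and 30.1 CPM on the deficient diet, and at 46.8 to 74.6 (median 63.7) CPM on the supplemented diet. The restricted libraries exceeded every other library. Its log2 fold change was -0.80 (SE 0.25, adjusted p = 0.649) in deficient against restricted and 0.66 (SE 0.25, adjusted p = 0.439) in restricted against adequate libraries. Cdk1 (ENSMUSG00000019942), the kinase that starts mitosis, had its highest library in the adequate group: 125, 60.9 and 78.8 CPM, against 82.9, 112 and 92.8 CPM on the restricted, 75.04, 62.8 and 42.2 CPM on the deficient and 55.5 to 91.7 (median 73.2) CPM on the supplemented diet. Restricted and deficient libraries of Cdk1 did not overlap, while adequate replicate 1 stood above all. For Cdk1 the log2 fold change was -0.67 (SE 0.27, adjusted p = 0.649) in deficient against restricted, -0.56 (SE 0.27, adjusted p = 0.338) in deficient against adequate and 0.40 (SE 0.23, adjusted p = 1) in restricted against supplemented libraries. The deficient against adequate value of Cdk1 was -0.02 without the 3 libraries. Ccnb1 (ENSMUSG00000041431), cyclin B1, was at 58.99, 74.5 and 61.04 CPM on the restricted, 42.8, 56.7 and 30.8 CPM on the deficient, 72.8, 34.5 and 59.8 CPM on the adequate and 44.5 to 76.2 (median 59.1) CPM on the supplemented diet. The deficient libraries reached just under the lowest restricted one, and the difference was -0.58 (SE 0.27, adjusted p = 0.676), or -0.36 without the 3 libraries. The other 6 were Ccna2, Ccnb2, Cdc25b, Cdc25c, Aurka and Cdca3, which ran from -0.71 (Aurka) to -0.41 (Cdc25b) in deficient against restricted libraries. Cdc25b was at -0.195 there without the 3 libraries.

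The 8 spindle motors and microtubule proteins were all above 0 in restricted against adequate libraries (median 0.50). Of them, 4 lay without overlap, against 8.37% of all genes. In deficient against restricted libraries all 8 were below 0 (median -0.53), 6 without overlap, against 6.38% of all genes. Leaving out the 3 libraries, 8 of 8 were below 0 in deficient against restricted libraries (median -0.34, 6 lower without overlap) and 8 above 0 in restricted against adequate (median 0.59, 6 higher without overlap). Kif2c (ENSMUSG00000028678), the motor MCAK that takes apart microtubule ends and corrects faulty attachments, was at 36.3, 41.7 and 42.7 CPM on the restricted, 30.7, 18.2 and 26.01 CPM on the adequate, 28.5, 26.1 and 17.9 CPM on the deficient and 25.4 to 36.6 (median 28.7) CPM on the supplemented diet. Restricted libraries exceeded all adequate and deficient ones, and supplemented replicate 5 reached into their range. For Kif2c the log2 fold change was 0.69 (SE 0.21, adjusted p = 0.388) in restricted against adequate, -0.73 (SE 0.21, adjusted p = 0.649) in deficient against restricted and 0.44 (SE 0.18, adjusted p = 1) in restricted against supplemented libraries. Tpx2 (ENSMUSG00000027469), which activates Aurora A and nucleates spindle microtubules, was at 85.1, 94.9 and 86.9 CPM on the restricted, 55.7, 44.2 and 73.8 CPM on the adequate, 68.5, 76.5 and 48.6 CPM on the deficient and 70.9 to 84.6 (median 75.01) CPM on the supplemented diet. Here too the restricted libraries exceeded all 12 others, by a small margin over the supplemented ones. Its log2 fold change was 0.62 (SE 0.19, adjusted p = 0.388) in restricted against adequate libraries. Knstrn (ENSMUSG00000027331), a spindle and kinetochore protein called kinastrin, was at 50.6, 21.2 and 36.01 CPM on the adequate, 43.1, 48.4 and 40.01 CPM on the restricted, 29.8, 24.1 and 17.4 CPM on the deficient and 28.9 to 41.5 (median 34.1) CPM on the supplemented diet. Its log2 fold change was -0.88 (SE 0.27, adjusted p = 0.649) in deficient against restricted and -0.59 (SE 0.26, adjusted p = 0.304) in deficient against adequate libraries, where adequate replicate 1 was the highest of the 15. The second value was -0.09 without the 3 libraries. Kif11, Kif15, Kif4, Hmmr and Nusap1 lay between -0.61 (Hmmr) and -0.47 (Kif11) in deficient against restricted libraries. Kif11 was at -0.27 there without the 3 libraries.

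The 5 kinetochore genes build the platform that holds microtubules on a chromosome. For 2 of them, Cenpa and Cenpf, deficient libraries lay below the restricted ones, against 6.38% of all genes. None had restricted libraries above the adequate ones, against 8.37%, and the group's median was -0.45 and 0.08 in those comparisons. Leaving out the 3 libraries, 5 of 5 were below 0 in deficient against restricted libraries (median -0.21, 2 lower without overlap) and 5 above 0 in restricted against adequate (median 0.31, 0 higher without overlap). Cenpf (ENSMUSG00000026605), a large kinetochore and microtubule-binding protein that accumulates in G2, was at 19.3, 22.3 and 39.6 CPM on the adequate, 41.5, 39.3 and 35.7 CPM on the restricted, 30.2, 31.7 and 22.8 CPM on the deficient and 30.1 to 37.8 (median 35.4) CPM on the supplemented diet. Adequate replicate 3 lay within the restricted range and replicates 1 and 2 below every other library. The log2 fold change of Cenpf was 0.52 (SE 0.23, adjusted p = 0.508) in restricted against adequate and -0.46 (SE 0.23, adjusted p = 0.684) in deficient against restricted libraries, and the first was 0.31 without the 3 libraries. Cenpe (ENSMUSG00000045328), the motor that carries chromosomes to the spindle equator, was at 13.4, 10.6 and 25.01 CPM on the adequate, 25.5, 26.6 and 21.1 CPM on the restricted, 20.1, 21.7 and 17.1 CPM on the deficient and 20.5 to 27.3 (median 24.3) CPM on the supplemented diet. In supplemented against adequate libraries the log2 fold change of Cenpe was 0.55 (SE 0.23, adjusted p = 0.487). Cenpa, the centromeric histone, and Ndc80 and Nuf2, which form the microtubule-binding NDC80 complex, had log2 fold changes of -0.08, 0.08 and -0.02 in restricted against adequate libraries. Without the 3 libraries these were 0.29, 0.22 and 0.42.

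All 4 spindle checkpoint genes were below 0 in deficient against restricted libraries (median -0.39), 2 without overlap, against 6.38% of all genes. In restricted against adequate libraries all 4 were above 0 (median 0.26), 1 without overlap, against 8.37%. Leaving out the 3 libraries, 4 of 4 were below 0 in deficient against restricted libraries (median -0.19, 2 lower without overlap) and 4 above 0 in restricted against adequate (median 0.31, 2 higher without overlap). Bub1b (ENSMUSG00000040084), the checkpoint kinase-like protein BUBR1 that holds back the anaphase-promoting complex, was at 70.8, 77.9 and 79.7 CPM on the restricted, 50.7, 40.9 and 64.3 CPM on the adequate, 64.3, 65.9 and 41.1 CPM on the deficient and 52.2 to 92.9 (median 71.8) CPM on the supplemented diet. The restricted libraries lay above both the adequate and the deficient ones. For Bub1b the difference on the log2 scale was 0.55 (SE 0.23, adjusted p = 0.488) in restricted against adequate and 0.45 (SE 0.20, adjusted p = 0.503) in supplemented against adequate libraries. Bub3 (ENSMUSG00000066979), its partner, was the least variable member, at 193, 212 and 177 CPM on the restricted, 208, 149.7 and 210.2 CPM on the adequate, 166, 177 and 113 CPM on the deficient and 147 to 198 (median 174) CPM on the supplemented diet. Its log2 fold change was -0.35 (SE 0.19, adjusted p = 0.721) in deficient against restricted and 0.04 (SE 0.19, adjusted p = 0.979) in restricted against adequate libraries. These were, leaving out the 3 libraries, -0.16 and 0.09. Bub1 and Ttk, the kinase MPS1, had overlapping libraries in every comparison.

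The chromosomal passenger complex corrects attachments and guides cytokinesis. All 4 subunits (median -0.62) had deficient libraries below the restricted ones without overlap, against 6.38% of all genes. In restricted against adequate libraries the median of the 4 was 0.38, and 3 lay higher without overlap, against 8.37%. Leaving out the 3 libraries, 4 of 4 were below 0 in deficient against restricted libraries (median -0.38, 4 lower without overlap) and 4 above 0 in restricted against adequate (median 0.44, 4 higher without overlap). Aurkb (ENSMUSG00000020897), its kinase Aurora B, was at 88.01, 94.1 and 86.4 CPM on the restricted, 84.9, 39.1 and 83.03 CPM on the adequate, 64.2, 74.2 and 35.7 CPM on the deficient and 57.4 to 118 (median 68) CPM on the supplemented diet. Adequate replicates 1 and 3 were just under the restricted range, and supplemented replicate 5 was the highest of all. The log2 fold change of Aurkb was -0.62 (SE 0.32, adjusted p = 0.696) in deficient against restricted libraries, or -0.35 without the 3 libraries. Incenp (ENSMUSG00000024660), its scaffold, was at 51.6, 46.7 and 55.9 CPM on the restricted, 37.5, 35.6 and 44.9 CPM on the adequate, 37.2, 42.5 and 27.4 CPM on the deficient and 36.3 to 50.9 (median 41.2) CPM on the supplemented diet. In log2 fold change Incenp was at -0.52 (SE 0.19, adjusted p = 0.649) in deficient against restricted and at 0.39 (SE 0.19, adjusted p = 0.571) in restricted against adequate libraries. Birc5 (survivin) and Cdca8 (borealin), the other two subunits, had -0.67 (SE 0.28) and -0.61 (SE 0.23) in deficient against restricted libraries, and Birc5 -0.42 without the 3 libraries.

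The 3 genes of anaphase and mitotic exit were Cdc20, Ube2c and Espl1. In deficient against restricted libraries the median was -0.59 with 2 without overlap, against 6.38% of all genes. In restricted against adequate libraries it was 0.65 with 2 without overlap, against 8.37%. Leaving out the 3 libraries, 3 of 3 were below 0 in deficient against restricted libraries (median -0.50, 2 lower without overlap) and 3 above 0 in restricted against adequate (median 0.46, 3 higher without overlap). Cdc20 (ENSMUSG00000006398), the activator of the anaphase-promoting complex, was at 113, 122 and 115 CPM on the restricted, 124, 77.2 and 106 CPM on the adequate, 78.5, 83.9 and 39.6 CPM on the deficient and 59.8 to 131 (median 86.8) CPM on the supplemented diet. Restricted and deficient libraries did not overlap, and the adequate and supplemented ones ranged across both. Its log2 fold change was -0.79 (SE 0.30, adjusted p = 0.649) in deficient against restricted and -0.60 (SE 0.30, adjusted p = 0.348) in deficient against adequate libraries. Both were closer to 0 without the 3 libraries, at -0.50 and -0.18. Espl1 (ENSMUSG00000058290), the protease separase that cuts cohesin, was at 22.4, 31.9 and 45.3 CPM on the adequate, 56.2, 50.9 and 54.01 CPM on the restricted, 35.1, 33.5 and 38.4 CPM on the deficient and 34.8 to 61.2 (median 56.03) CPM on the supplemented diet. Unlike most of the list it was not at its lowest in deficient replicate 3, and its 3 deficient libraries lay close together below the restricted ones. The log2 fold change of Espl1 was 0.64 (SE 0.21, adjusted p = 0.376) in supplemented against adequate, 0.69 (SE 0.24, adjusted p = 0.411) in restricted against adequate, -0.59 (SE 0.24, adjusted p = 0.649) in deficient against restricted and -0.54 (SE 0.21, adjusted p = 0.87) in deficient against supplemented libraries. The restricted against adequate value of Espl1 was 0.46 without the 3 libraries. Ube2c, the ubiquitin-conjugating enzyme of the complex, had 0.65 (SE 0.28) in restricted against adequate libraries, without overlap.

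Of the 6 genes of the central spindle and cytokinesis (median -0.52), 5 had deficient libraries below the restricted ones, against 6.38% of all genes. In restricted against adequate libraries all 6 were above 0 (median 0.41). Leaving out the 3 libraries, 6 of 6 were below 0 in deficient against restricted libraries (median -0.33, 5 lower without overlap) and 6 above 0 in restricted against adequate (median 0.40, 2 higher without overlap). Prc1 (ENSMUSG00000038943), which bundles the antiparallel microtubules of the midzone, was at 112, 141 and 126 CPM on the restricted, 94.4, 63.3 and 90.7 CPM on the adequate, 102, 106 and 56.7 CPM on the deficient and 89.2 to 127 (median 107) CPM on the supplemented diet. Its restricted libraries lay above all adequate and all deficient libraries. For Prc1 the log2 fold change was 0.60 (SE 0.23, adjusted p = 0.451) in restricted against adequate and -0.51 (SE 0.23, adjusted p = 0.663) in deficient against restricted libraries, and the second was -0.26 without the 3 libraries. Kif20a (ENSMUSG00000003779), the motor MKLP2 that carries the passenger complex to the midzone, was at 84.03, 96.04 and 115 CPM on the restricted, 89.8, 66.1 and 82.9 CPM on the adequate, 81.5, 70.6 and 52.95 CPM on the deficient and 77.97 to 117 (median 86.2) CPM on the supplemented diet. Its log2 fold change was -0.44 (SE 0.18, adjusted p = 0.87) in deficient against supplemented and -0.53 (SE 0.20, adjusted p = 0.649) in deficient against restricted libraries. Kif20b, Kif23, Kif14 and Racgap1 ran from -0.64 (Kif23) to -0.30 (Kif14) in deficient against restricted libraries. Kif23 was at -0.36 there without the 3 libraries.

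**Figure D3:**
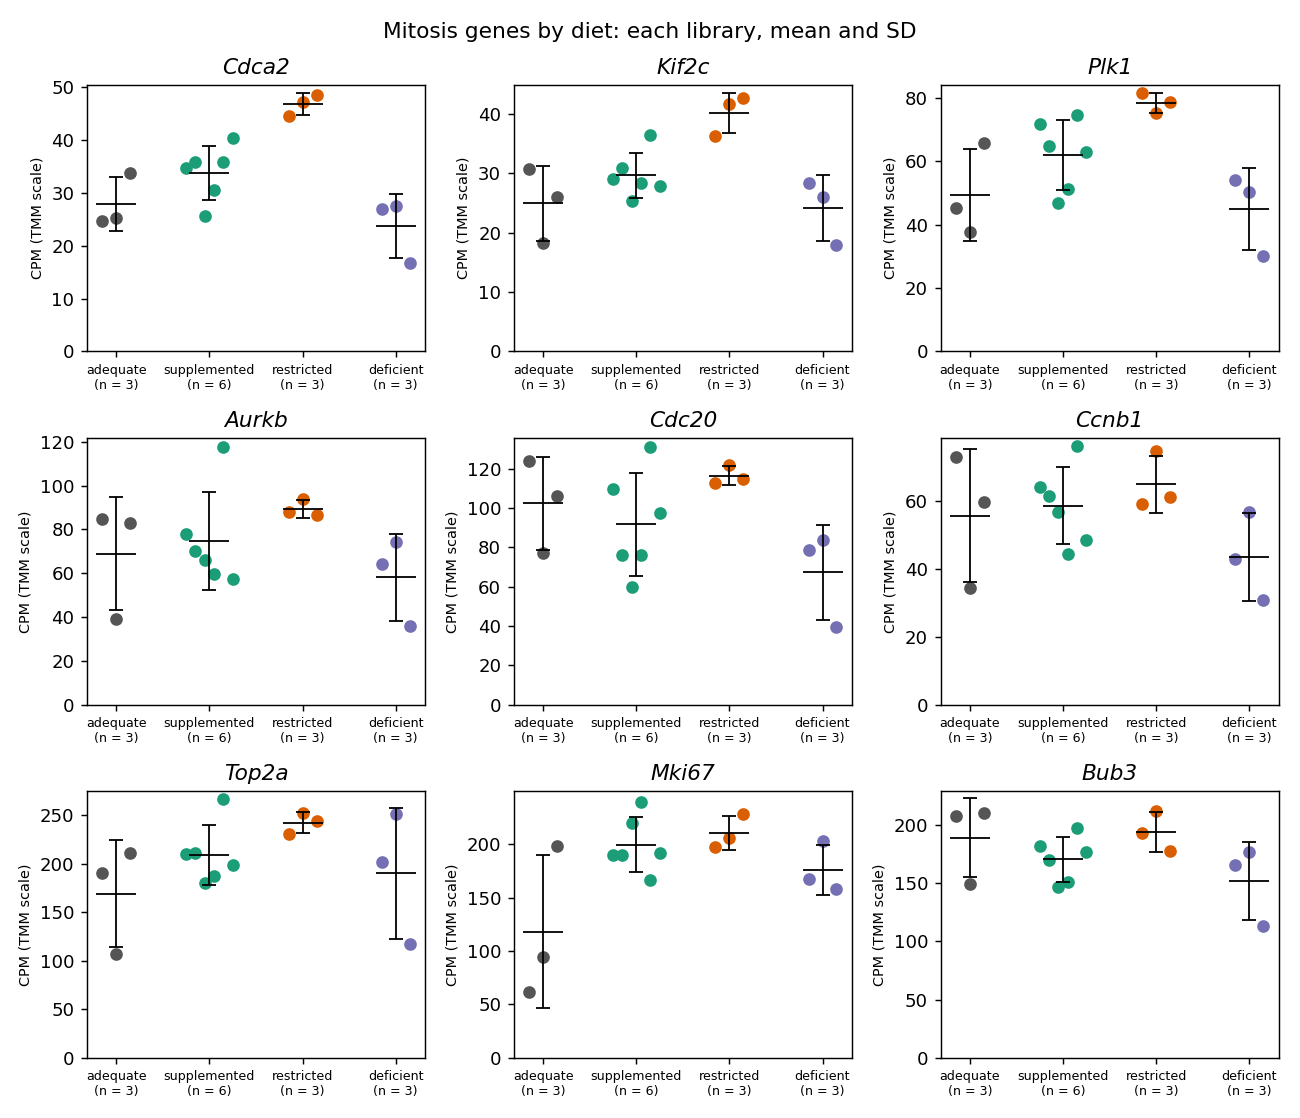
Each panel shows CPM of a gene in every library by diet, with the mean and SD as bars. Restricted libraries of Cdca2 sit at 44.5 to 48.5 CPM, above all others, while the Mki67 panel shows adequate replicates at 61.4 and 94.7 CPM below the rest.

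Levels can be compared between genes only per length, for which the deposited TPM, transcript abundance on a per-length scale, serve. By median TPM over the 15 libraries Cdca3 (58.7), Bub3 (41.6), Racgap1 (40.3), Cdk1 (38.5) and Ube2c (36.4) were the most abundant members. Kif14 (0.80), Cenpe (1.36), Ttk (1.4) and Ndc80 (1.71) were the least abundant. The lowest count of a member in any library was 66, so all 42 passed the filter on low counts and each was measured in every library.

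Gene length moved with the members' levels in some libraries. Length here is the median over libraries of the length deposited with each library's RSEM estimates, and is not a fixed reference length. In adequate replicate 1 the Spearman correlation between gene length and a member's log2 CPM minus its mean over libraries was -0.81 over 42 genes, and -0.46 over 15559 genes. It was 0.60 in deficient replicate 3 and 0.62 in supplemented replicate 4 over the 42 genes (0.22 and 0.26 over all), and -0.30 to 0.31 in the other libraries. Genes of 1 library share its depth and RNA, so these are descriptions. The 14 shortest members, up to 2055 bases, exceeded the 14 longest, from 3103 bases, by 1.08 in mean log2 CPM in adequate replicate 1, by 0.56 in adequate replicate 2 and by 0.24 in adequate replicate 3. In the other libraries that gap ran from -0.04 to 0.40. Mki67, the longest member at 10080 bases, was at its lowest in adequate replicate 1, where Cdk1, at 979 bases, was at its highest.

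The same order appears in the differences from the adequate diet. In restricted against adequate libraries the median log2 fold change was 0.20 for the 14 shortest and 0.52 for the 14 longest members, and 0.41 and 0.47 without adequate replicate 1. In supplemented against adequate libraries it was 0.01 and 0.32, and 0.19 and 0.29 without that library. In deficient against adequate libraries it was -0.39 and 0.06, and -0.24 and -0.02 without that library. In deficient against restricted libraries, which do not use it, the medians were -0.62 and -0.47, and -0.40 and -0.31 without deficient replicate 3. The part of length in these differences was not tested.

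**Figure D4:**
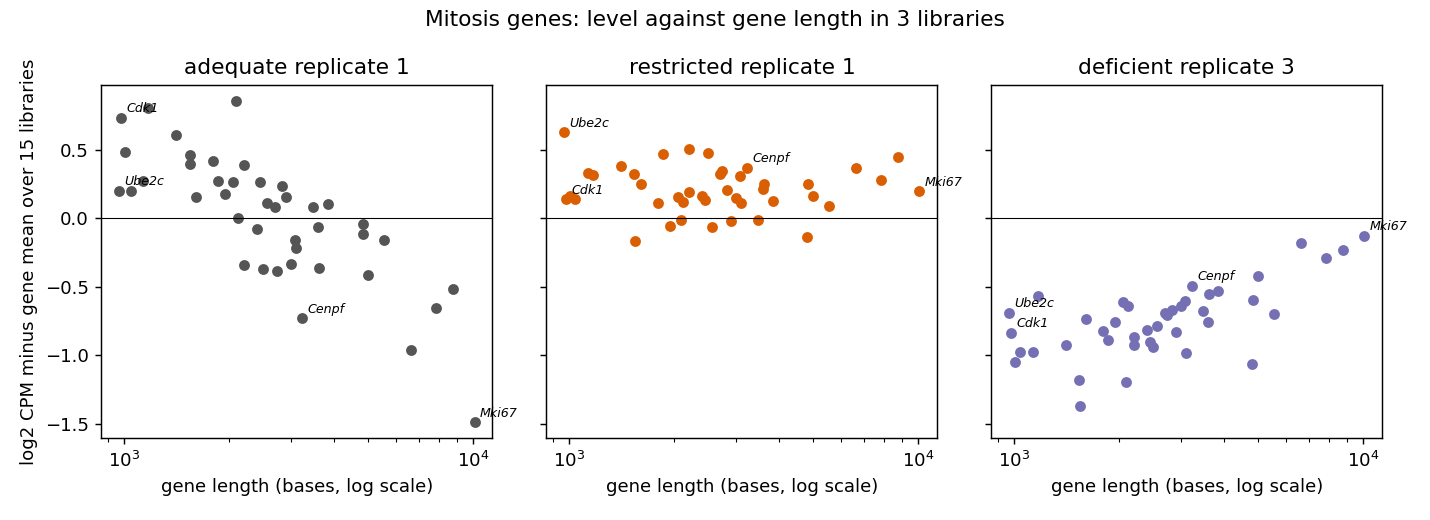
Each point is a member, with its length in bases on a log axis and its log2 CPM minus its mean over 15 libraries on the other, in 3 libraries. Points slope down in adequate replicate 1, from Cdk1 to Mki67, lie flat in restricted replicate 1, and slope up below 0 in deficient replicate 3.

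Markers of normal lung differed between the same libraries. Over 10 of 10 alveolar type 2 genes the summed level was 110 to 660 CPM in the restricted, 266 to 6610 CPM in the deficient, 333 to 1077 CPM in the adequate and 154 to 1844 CPM in the supplemented libraries. Sftpc, the surfactant protein that defines these cells, was above 0 in every library, at 2.32 to 181 CPM in the restricted and 37.3 to 2159 CPM in the deficient libraries. Over 10 of 10 endothelial genes the sum was 228 to 323 CPM in the restricted, 215 to 1670 CPM in the deficient and 129 to 184 CPM in the adequate libraries. Deficient replicate 3 also held the most alveolar type 1 (3112 CPM against at most 907 CPM elsewhere), airway (4759 against at most 804), B cell (90.3 against at most 26.0) and erythroid RNA (2915 against at most 840). With the alveolar level as a covariate, deficient against restricted libraries had a median of -0.35 over the 42 genes, all below 0, and restricted against adequate libraries one of 0.34 with 36 above 0.

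The melanocyte genes, which mark the tumour cells, were lowest in deficient replicate 3, as the mitosis genes were. Their summed level was 26590 to 34330 CPM in the restricted, 17730 to 34050 CPM in the deficient, 21410 to 31750 CPM in the adequate and 26460 to 33310 CPM in the supplemented libraries. All 10 were below 0 in deficient against restricted libraries, with a median of -0.35. For each 100 CPM of melanocyte genes the 42 mitosis genes summed to 8.28, 9.87 and 11.4 CPM in the restricted libraries and to 8.63, 7.27 and 8.54 CPM in the deficient libraries. It was 9.49, 7.82 and 8.37 CPM in the adequate libraries and 7.94 to 10.6 CPM in the supplemented ones, so on this scale the 4 diets overlapped. With the melanocyte level as a covariate the median in deficient against restricted libraries was -0.21, with 36 of 42 below 0, and in restricted against adequate libraries 0.26, with 32 above 0. The part of the tissue makeup in the difference between diets was not tested further.

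**Figure D5:**
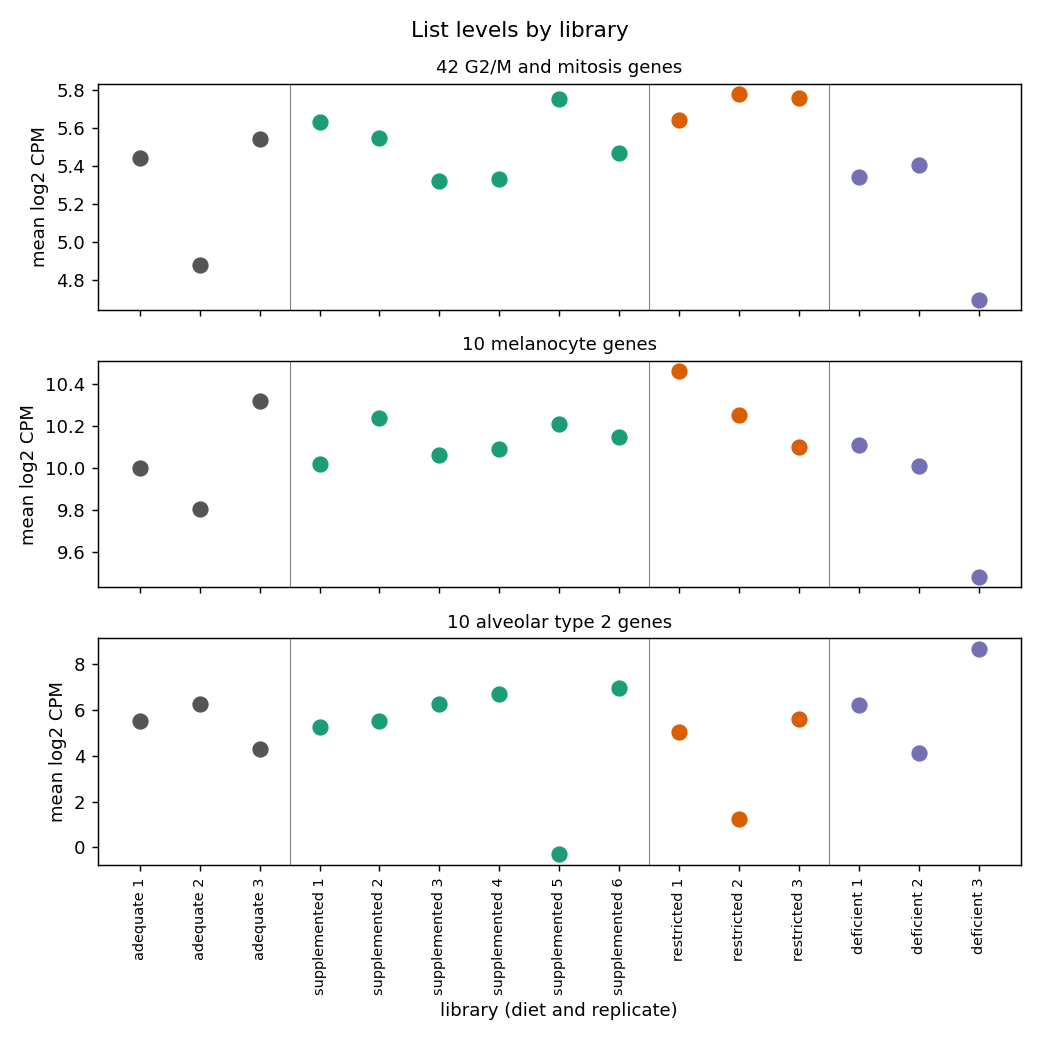
The 3 panels give the mean log2 CPM of the 42 mitosis genes, of 10 melanocyte genes and of 10 alveolar type 2 genes in each library, each on its own axis, which does not start at 0. Deficient replicate 3 is lowest in the upper panels and highest in the bottom panel.

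Other genes of the pathway were read from 6 further lists. EdgeR called 0 of their members in every comparison, and so did limma-voom, while DESeq2 called Ckap2l, Ncapg and Troap, all in restricted against adequate libraries, where it called 0.407% of all genes. The list closest in role, 85 tested mitosis genes that are not among the 42, had 82 members below 0 in deficient against restricted libraries, a median of -0.43, 30 lower without overlap (6.38% of all genes) and 18 lower with an unadjusted p under 0.05 (2.28% of all genes). In restricted against adequate libraries 61 of the 85 were above 0 with a median of 0.23, and 16 lay higher without overlap (8.37% of all genes). Without the 3 libraries that stood apart, 73 of 85 were below 0 in deficient against restricted libraries (median -0.23, 32 lower without overlap) and 71 above 0 in restricted against adequate (median 0.32, 35 higher without overlap). Those counts without overlap stand beside 10.6% of all genes lower and 16.4% higher. Ckap2l, a spindle protein, was at 36.1, 43.3 and 43.1 CPM in the restricted, 24.2, 33.9 and 19.9 CPM in the deficient and 24.2, 15.6 and 27.5 CPM in the adequate libraries. Its restricted libraries lay above the other two groups, and its log2 fold change was 0.86 (SE 0.22, adjusted p = 0.264) in restricted against adequate and -0.65 (SE 0.22, adjusted p = 0.649) in deficient against restricted libraries. Ncapg, a condensin subunit, was at 36.2, 40.2 and 45.9 CPM in the restricted and 28.03, 15.4 and 17.8 CPM in the adequate libraries (log2 fold change 1.00, SE 0.26, adjusted p = 0.27).

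Foxm1 and Mybl2, the best known regulators of these genes, had overlapping libraries. Of 14 genes for FOXM1, B-MYB, the MuvB core and NF-Y, 9 were below 0 in deficient against restricted libraries with a median of -0.13, and without the 3 libraries 9 with a median of -0.12. With all libraries, 1 lay lower and 1 higher without overlap, where 6.38% of all genes lay lower and 4.71% higher. Foxm1 was at 125, 130.1 and 141 CPM in the restricted, 97.9, 137 and 77.5 CPM in the deficient and 66.3, 80.6 and 161 CPM in the adequate libraries, which overlap (log2 fold change -0.34, SE 0.27, adjusted p = 0.84 in deficient against restricted). Mybl2, which encodes B-MYB, was at 46.2, 36.5 and 40.7 CPM in the restricted and 28.9, 39.7 and 19.4 CPM in the deficient libraries (log2 fold change -0.49, SE 0.29, adjusted p = 0.756). Lin54, the DNA-binding subunit of MuvB, had -0.28 (SE 0.20, adjusted p = 0.81). Of 17 anaphase-promoting complex subunits and regulators 14 were below 0 with a median of -0.15 (10 and -0.07 without the 3 libraries). Of the 17, 3 were without overlap, beside the same shares of all genes. The list was led by Fzr1, an activator of the complex (log2 fold change -0.36, SE 0.16, adjusted p = 0.663), and the subunit Anapc11 (-0.51, SE 0.25, adjusted p = 0.682). Of 10 brakes on mitotic entry and CDK inhibitors 5 were below 0 with a median of -0.02 (4 and 0.09 without the 3 libraries). Wee1, the kinase that holds CDK1 inactive, was at 18.9, 17.8 and 15.8 CPM in the restricted and 11.2, 14 and 7.97 CPM in the deficient libraries (log2 fold change -0.66, SE 0.35, adjusted p = 0.711). Cdkn1c, a CDK inhibitor, was at 6.08 CPM in deficient replicate 3 and at 0.151 to 1.81 CPM in the other 14 libraries.

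The earlier cell cycle was read from 2 lists. Of 59 genes of G1/S and DNA replication, 55 were below 0 in deficient against restricted libraries with a median of -0.26, 13 lower without overlap against 6.38% of all genes, and 0 with an unadjusted p under 0.05. Without the 3 libraries that stood apart 39 were below 0, the median was -0.05 and 13 lay lower without overlap against 10.6% of all genes. Its leading genes were Rpa1, a single-stranded DNA-binding subunit (log2 fold change -0.42, SE 0.21, adjusted p = 0.683), and the thymidine kinase Tk1 (-0.57, SE 0.28, adjusted p = 0.691). Of 7 G1 cyclins and CDKs 5 were below 0 (48.1% of all genes were) with a median of -0.03, and 4 with a median of -0.02 without the 3 libraries. Cdk2, the kinase of S phase entry, was at 344, 379 and 307 CPM in the restricted and 275, 249 and 196 CPM in the deficient libraries, without overlap (log2 fold change -0.52, SE 0.19, adjusted p = 0.649). Cdk4, a kinase of G1, had overlapping libraries (-0.24, SE 0.29, adjusted p = 0.93). The difference between any of these lists and the 42 genes was not tested. Among the 35 members with a promoter entry, the 29 with a CHR spelling had a median of -0.51 in deficient against restricted libraries and the 6 without one -0.55. Of these, 19 and 3 lay lower without overlap, against 6.38% of all genes.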

How the data were processed

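RNA of 15 tumour libraries was sequenced. The deposited tables give, per Ensembl gene, RSEM expected counts, TPM and gene length in bases. Per the submitters' processing notes, Bowtie2 2.2.9, RSEM 1.30 and edgeR were used on build NCBIM37, and neither the strand setting nor the annotation release is given in the sources used here. The expected counts, as the authors deposited them, were rounded to whole numbers. The TPM values were used as the authors deposited them, to compare levels between genes. The deposited gene length, as its median over libraries, was used only to rank genes by length.

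Here, edgeR 4.0.16 (R 4.3.3) kept 16001 of 37620 genes by its filter on low counts, scaled libraries by TMM (factors 0.69 to 1.16) and fitted all 15 libraries in 1 model with 11 residual degrees of freedom (common biological coefficient of variation 0.461). Benjamini-Hochberg adjustment ran over all tested genes at 0.05, log2 fold changes carry SEs from the quasi-likelihood F, and log2 CPM used a prior count of 2. DESeq2 1.42.0, limma-voom (limma 3.58.1), other scalings, covariates and left-out libraries were alternatives. Shares of all genes called by DESeq2 are over 23560 genes with any count, and those by limma-voom over the 16001. The fits were tested on simulated data. Totals of 13107679 to 29994264 counts, with at least 66 counts for a member in any library, limit precision less than the spread between libraries. The labels do not say that libraries are separate mice, so p-values measure only the spread between these libraries.

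Values in each library are given for 9 well-known members, the 3 members with the smallest p in each comparison and 1 in each role class. From each other list the 2 genes with the smallest p in deficient against restricted libraries are named, and for other mitosis genes also in restricted against adequate libraries. Of these, 1 gene is not reported here. Foxm1 and Troap were named after values were seen. The members and lists were chosen with earlier results of these data known.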

Additional observations from a re-analysis of the deposited data

Results flagged for a closer look

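Supplemented replicate 5 stood far from the other 5 supplemented libraries at 4 of the 42 members, by Dixon's test of the gap to the nearest library over the range. Ndc80 was at 18.3 CPM there against 6.22 to 9.38 CPM in the others, with a gap of 0.738 of the range. Kif20b was at 35.95 CPM against 19.5 to 23.9 CPM (0.735). Aurkb was at 117.6 CPM against 57.4 to 77.9 CPM (0.659), and Top2a at 266.8 CPM against 180.5 to 211.4 CPM (0.642). Chance flags about 1 in 20 such groups, and members share the library, so these 4 are not independent. The same test was not run over all genes, so the count cannot be read as a trait of the members. This library also held the skeletal muscle RNA; their part in these values was not tested.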

How the results depend on the processing

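Each result was recomputed under 27 other settings. For 18 results of the named genes there were 486 alternatives. Of these, 484 kept their direction and their side of the threshold, 2 passed it (Kif2c at 0.84 in restricted against adequate libraries without the 3 libraries that stood apart, and Cdca2 at -0.95 in deficient against restricted libraries by DESeq2) and 0 reversed. Genes were named in part for the smallest p, a choice that itself favours a kept direction. Outside that count, Cenpa (-0.08 to 0.29) and Nuf2 (-0.02 to 0.42) changed direction in restricted against adequate libraries without the 3 libraries. The count of called members was 0 in 185 of 188 alternatives. It was 1 in restricted against adequate libraries without those 3 libraries, and 1 by DESeq2 both in deficient against restricted libraries and in the test of any difference. The median log2 fold change moved to -0.21 with the melanocyte covariate in deficient against restricted libraries and to -0.075 without the 3 libraries in deficient against supplemented libraries. Medians that moved by over 1.5 times but by less than the spread between libraries (pooled SD 0.255) were these. With library totals in place of TMM it was 0.44 in supplemented against adequate, -0.02 in deficient against adequate, and 0.13 in restricted against supplemented libraries. Members with an unadjusted p under 0.05 then numbered 19 in supplemented and 24 in restricted against adequate libraries, where the median was 0.59. That scaling put the median of all genes at 0.23 in supplemented, 0.14 in restricted and 0.17 in deficient against adequate libraries. With the melanocyte covariate the median was -0.14 in deficient against supplemented, 0.07 in restricted against supplemented, 0.26 in restricted against adequate and 0.02 in deficient against adequate libraries. With the alveolar covariate it was 0.13 in restricted against supplemented and -0.09 in deficient against adequate libraries. In a fit of only the groups compared, 8 members had an unadjusted p under 0.05 in restricted against adequate libraries, down from 13. In restricted against supplemented libraries 7 did, up from 2. Leaving out 1 library at a time, the median ran from -0.30 to 0.03 in deficient against adequate, 0.27 to 0.51 in restricted against adequate, 0.05 to 0.30 in supplemented against adequate, -0.67 to -0.34 in deficient against restricted, -0.45 to -0.15 in deficient against supplemented and 0.15 to 0.25 in restricted against supplemented libraries. The scaling without 2 unnamed identifiers and the newer dispersion fit of edgeR were chosen after seeing the data. No paired analysis was possible because the labels carry no replicate numbers: those used here follow accession order and only name a library.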

Other observations

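E2f2 and E2f8, chosen after their values were seen, are transcription factors of the S phase programme. E2f2, an activator, was at 7.94, 5.47 and 10 CPM in the adequate libraries and at 12.9 to 18.7 CPM in the supplemented libraries, without overlap, as for 2.14% of all genes (log2 fold change 1.05 by edgeR, adjusted p = 0.313). E2f8, a repressor, was at 14.1, 8.12 and 12.6 CPM in the adequate and 15.2 to 22.3 CPM in the supplemented libraries, also without overlap. E2f2 in restricted replicate 2 (9.94 CPM) and E2f8 in deficient replicate 3 (12.1 CPM) lay below the highest adequate library, so those groups overlapped. The deficient libraries of E2f2 (15.6, 10.6 and 20.7 CPM) lay above the adequate ones without overlap, as for 7.91% of all genes. So did the restricted libraries of E2f8 (15.4, 19.2 and 21.1 CPM), as for 8.37% of all genes.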
